A study of Capitella teleta with 10 samples.

Results

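Chromatin accessibility of the 64-cell embryo was compared with that of the gastrula in the annelid Capitella teleta, using the 4 ATAC-seq libraries of these stages among the 10 of the series and all 46409 consensus peaks of the deposited table. In ATAC-seq a transposase inserts adaptors where DNA is not covered by nucleosomes, so a higher value at a peak means more insertions there. Both stages were sampled as whole embryos in 2 libraries each, with about 500 embryos per library at the 64-cell stage and about 200 at the gastrula stage, each containing around 50000 cells and sequenced at the same centre. The other 6 libraries come from larvae at stage 4tt, stage 5 and stage 8. Each library pools many embryos, so a region accessible in fewer cells and a region less accessible in each cell cannot be told apart. No marker of stage could be checked, because the scaffolds of the deposited files are not paired with genes in the gene table used here, and no sequence or gene is therefore given for a peak.

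Capitella teleta develops by spiral cleavage, in which the early divisions set aside cells whose lineage predicts what they will form. At 64 cells the embryo is still cleaving. By the end of gastrulation the precursors of gut and mesoderm lie inside the embryo and the germ layers are in place. An accessible region can be a promoter, an enhancer or another site where proteins displace nucleosomes, and accessibility alone does not tell which of these a peak is or whether a nearby gene is transcribed.

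The number of reads in peaks can be estimated from the steps of the normalised values. It was 14029125 and 16546816 in the 64-cell libraries and 22790309 and 24955974 in the gastrula libraries, with 2 libraries per stage. The gastrula libraries were the deeper ones. The median normalised value per peak was 333 and 335 in the 64-cell libraries and 273 and 257 in the gastrula libraries. The 90th percentile was higher in the gastrula, at 1481 and 1478 against 1253 and 1324, and the 25th percentile lower, at 100.3 and 90.1 against 133 and 130, but the 10th percentile was again higher, at 31.0 and 24.7 against 21.3 and 23.3. The groups did not overlap in any of these measures, though they did in the log2 ratio of the 90th to the 10th percentile (5.58 and 5.90 against 5.88 and 5.83). The log2 ratio of the 75th to the 25th percentile did not overlap and was higher in the gastrula, at 2.87 and 3.00 against 2.41 and 2.51. The part that depth and this spread of values had in the results below was not tested.

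From the 64-cell embryo to the gastrula, 12594 of 46409 peaks opened and 16864 closed, which is 27.1% and 36.3% of all peaks. Opened and closed mean here that the value rose or fell at an adjusted p under 0.05 (limma, Benjamini-Hochberg over all peaks), whatever the size of the change. Closing was the more frequent change, while from 4-fold upwards opened peaks were the more numerous. The median log2 change was 0.73 among opened peaks and −0.93 among closed peaks, and −0.08 over all peaks. At least a 2-fold change was seen at 4219 opened peaks (9.09% of all peaks) and 7306 closed peaks (15.7%). At least a 4-fold change was seen at 1109 opened and 668 closed peaks, and at least an 8-fold change at 305 opened and 123 closed peaks. Opened peaks were thus 36.6% of the changed peaks at 2-fold and 71.3% at 8-fold. The peaks opened at least 4-fold started from very low values, with medians of 4.73 and 3.95 in the 64-cell libraries. Those closed at least 4-fold had 435 and 517 there. Of the former, 33.6% overlapped a peak that the authors had called in both 64-cell libraries, against 42.8% of all peaks. The share of opened among all changed peaks, 42.8%, depended on the scaling of the libraries. It was 62.6% when the median log2 value of each library was set equal, which shifts every log2 change up by 0.33, so the excess of closed peaks holds relative to the scaling of the authors and not under that alternative.

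Direction went with the strength of a peak. Strength was taken as the mean log2(value + 1) over all 10 libraries and divided into 5 quintiles of about 9282 peaks. In the strongest quintile, 56.6% of peaks opened and 18.0% closed, with a median log2 change of 0.30. Quintile 2, of weak but measurable peaks, was the reverse, as 14.1% opened and 55.6% closed, with a median of −0.63. Quintiles 3 and 4 lay between, with 52.4% and 37.5% closed. The weakest quintile was split, with 20.5% opened and 18.3% closed, and it held the widest spread of log2 changes, from −1.26 at the 10th to 2.04 at the 90th percentile. The levels show the same separation. The median value in the strongest quintile was 1203 and 1273 in the 64-cell libraries and 1470 and 1464 in the gastrula libraries, and in quintile 2 it was 171 and 167 against 122 and 111. Quintiles made from the 6 larval libraries alone, which leave out the compared libraries, gave 55.9% opened in the strongest and 53.7% closed in quintile 2. The strongest quintile had more opened than closed peaks, and quintiles 2 and 3 more closed than opened peaks, under each of the 3 other scalings. The size of the split depended on the scaling and was smallest under quantile normalization. There 39.9% opened and 26.8% closed in the strongest quintile, and 22.7% and 32.0% in quintile 2. The median log2 changes of these quintiles were then 0.10 and −0.18. Quintile 4 turned, with more opened than closed peaks under TMM scaling (35.0% against 32.3%) and with medians set equal (48.4% against 24.2%). The weakest quintile turned to more closed than opened peaks under 4 of 17 settings, namely with peaks of a mean value of at least 50 (37.5% closed, the larger share), without gastrula replicate 1 (14.3% against 18.8%), in DESeq2 (14.8% against 15.5%) and in edgeR (17.2% against 17.6%).

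**Figure D1:**
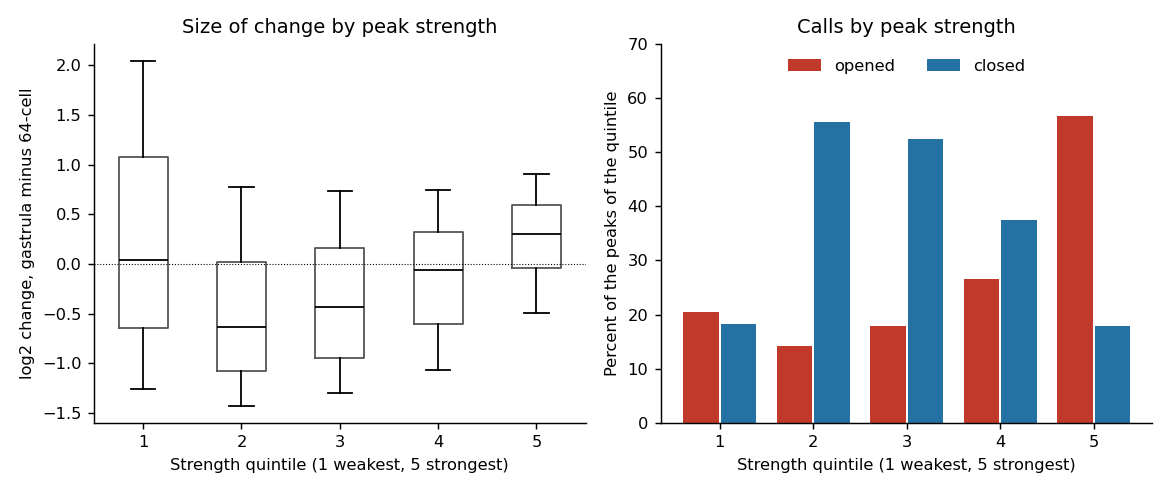
Left, log2 change from the 64-cell embryo to the gastrula by quintile of peak strength over all 46409 peaks (line, median; box, interquartile range; whiskers, 10th and 90th percentiles). Right, percent of the peaks of each quintile that opened (red) or closed (blue). Closed peaks are most frequent in quintile 2 (55.6%) and opened peaks in quintile 5 (56.6%).

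Absolute changes were larger at weaker peaks. The median absolute log2 change fell from 0.85 in the weakest quintile to 0.43 in the strongest. The standard error fell in parallel, from a median of 0.49 to 0.09, and the median peak of the weakest quintile was covered by 10 reads in the 64-cell replicate 1. At strong peaks only 7.64% opened at least 2-fold, while 18.7% of the weakest peaks did so.

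Width added to strength. Over all peaks, the share that opened rose with width from 19.3% in the narrowest quintile (101 bp and over) to 35.3% in the widest (up to 5828 bp), and the share that closed stayed between 34.0% and 38.2%. Wide peaks are also strong peaks, so width was compared within each strength quintile, and the order was then reversed in strength quintiles 3 to 5. In strength quintile 4, 46.9% of the narrowest peaks opened and 13.3% closed, but 11.4% of the widest opened and 68.8% closed. The median width of those groups was 625 bp and 1738 bp. In strength quintile 3, 27.0% of the narrowest and 69.7% of the widest peaks closed, and in quintile 5 the shares were 5.86% and 32.2%. The weakest quintile went the other way, as 32.1% of its narrowest and 7.22% of its widest peaks closed. Its narrowest peaks were also stronger than its widest, with a median strength of 5.68 against 4.76. They had a median of 18 against 8 reads in 64-cell replicate 1, and a median standard error of 0.36 against 0.52.

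**Figure D2:**
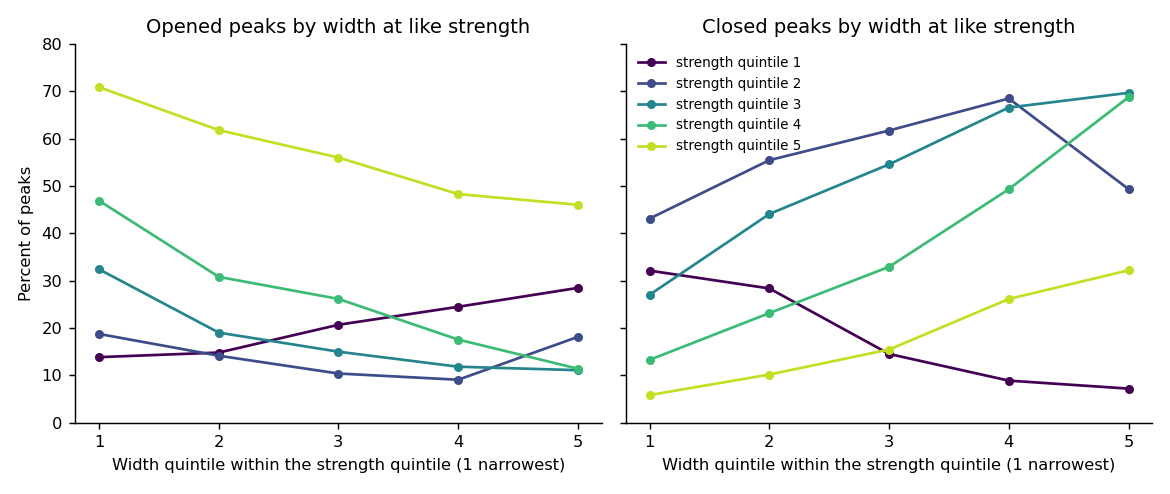
Percent of peaks that opened (left) or closed (right) by width quintile within each strength quintile, where width quintile 1 is the narrowest and strength quintile 1 the weakest. The closed share climbs with width in strength quintiles 3 to 5, from 13.3% to 68.8% in quintile 4, and falls with width in strength quintile 1.

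The 2 measures join in the larval value per kb of peak, which uses none of the compared libraries. Of the 9282 peaks with the highest larval value per kb, 61.8% opened and 11.4% closed, with a median log2 change of 0.37. In quintile 2 of this measure 10.8% opened and 66.2% closed, with a median of −0.79. In the lowest quintile, with a median of 67.2 units per kb, 23.5% opened and 14.2% closed.

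The lists of peaks that the authors called in each library give another measure of the same regions, from the same reads. They held 40205 and 45862 peaks at the 64-cell stage and 44351 and 44723 in the gastrula. Called peaks were wider in the gastrula, with a median of 484 and 495 bp against 351 and 399.5 bp, and covered 25.6 and 26.3 Mb against 17.7 and 22.4 Mb. Their median fold enrichment over local background was 3.20 and 3.16 against 3.03 and 2.89, and 23.5% and 23.5% of gastrula peaks exceeded a fold enrichment of 5, against 11.6% and 10.7% at 64 cells. The lists of both stages did not overlap in any of these measures other than the number of peaks. Of 33823 called peaks in 64-cell replicate 1 with support in replicate 2, 5649 (16.7%) overlapped no called peak of the gastrula, and of 38158 such peaks in gastrula replicate 1, 8456 (22.2%) overlapped none of the 64-cell embryo.

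Much of the closing took place at regions that were not called as peaks at either stage. Of the 46409 consensus peaks, 13325 overlapped no called peak in any of the 4 lists, since the consensus set was built from all 5 stages. They held 8247 of the 16864 closed peaks (48.9%) and 796 of the 12594 opened peaks (6.32%). Their median log2 change was −0.72 and their median value over all libraries 181. A further 2023 peaks were called in both 64-cell lists and in neither gastrula list, and 78.4% of them closed, with a median log2 change of −1.34. Conversely, 62.6% of the 5291 peaks called in both gastrula lists and in neither 64-cell list opened, with a median of 0.67. In the 16754 peaks called in all 4 lists, 39.6% opened and 19.9% closed. Restricting the table to the 33084 peaks in at least 1 of the 4 lists left 11798 opened and 8617 closed peaks, an opened share of 57.8%.

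In the peaks called in all 4 lists, the fold enrichment of the peak caller was about level between the stages where the table gave a closed peak. Among the 6636 of them that opened in the table, the median fold enrichment was 3.5 and 3.52 in the 64-cell libraries and 5.41 and 5.46 in the gastrula libraries. Among the 6777 with neither call it was 3.30 and 3.43 against 4.62 and 4.64. Among the 3341 that closed it was 3.08 and 3.08 against 3.08 and 3.10, although their table values fell by a median of 0.62 on the log2 scale. Fold enrichment was higher in both gastrula lists than in both 64-cell lists at 11192 of the 16754 peaks (66.8%) and lower in both at 2402 (14.3%). Among closed peaks these shares were 34.8% and 32.3%, and among opened peaks 81.6% and 6.06%. Relative to local background, then, the typical peak called at both stages was more prominent in the gastrula, and the typical closed one was neither more nor less so.

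**Figure D3:**
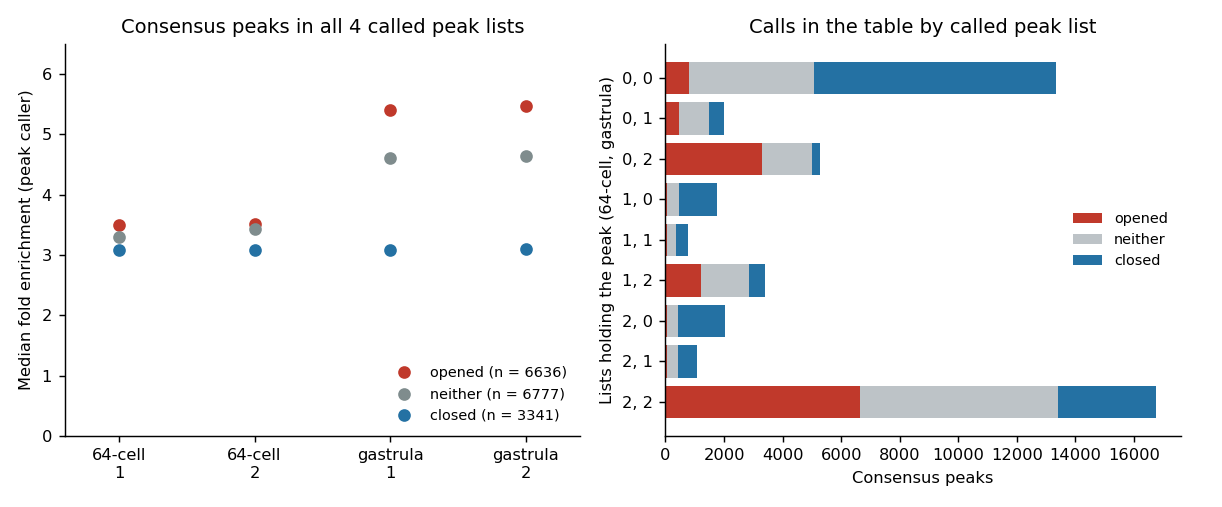
Left, median fold enrichment given by the peak caller in each of the 4 libraries for the 16754 consensus peaks called in all 4 lists, split by their change in the table (neither: not past the test). Right, number of consensus peaks by how many 64-cell and gastrula lists hold them, with the peaks that opened (red), closed (blue) or did neither (grey) of each class; the class in no list (0, 0) holds 8247 closed peaks.

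Summits were placed less alike across stages at closed peaks. Over the peaks in all 4 lists, the strongest summits lay a median of 44 bp apart between the 64-cell libraries, 28 bp apart between the gastrula libraries, and 49 to 50 bp apart between stages. Among opened peaks the between-stage distance was 43 to 45 bp, close to the 40 bp between the 64-cell libraries. Among closed peaks it was 90.0 to 93 bp, against 55 and 44 bp within the stages. At 32.7% to 33.1% of closed peaks the summits of both stages lay over 200 bp apart, which was so at 18.2% to 18.6% of opened peaks.

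Peaks were compared by their distance from the nearest other consensus peak on the scaffold. Among the 7298 peaks with a neighbour within 500 bp, 26.1% opened and 42.0% closed. The closed share fell to 34.4% among the 5199 peaks with 5000 to 19999 bp to the next, while the opened share stayed between 24.8% and 28.6%. Of the 254 peaks with 20000 bp or more to the next, 27.2% opened and 21.3% closed. Of the 3369 peaks alone on their scaffold, 29.1% opened and 11.7% closed, and 758 opened at least 2-fold against 233 that closed. Lone peaks were weak, with a median value of 28.3 and 29.5 in the 64-cell libraries and 47.8 and 37.5 in the gastrula libraries. In strength quintile 3, where median strength was nearly equal (8.23 against 8.28), 35.3% of lone peaks opened and 28.3% closed, against 21.5% and 52.0% of peaks with a neighbour within 500 bp. In the weakest quintile the shares were 25.7% and 6.0% against 15.2% and 27.2%, but lone peaks were weaker there too, with a median strength of 3.84 against 5.11. The peaks of that quintile with 20000 bp or more to the next were close to the lone ones, at 27.3% and 7.14%. From under 500 bp to 5000 to 19999 bp, the closed share fell within strength quintiles 1 (27.2% to 19.3%), 4 (43.4% to 32.3%) and 5 (21.8% to 11.4%). It was 59.7% and 57.3% in quintile 2, and it rose from 52.0% to 56.5% in quintile 3. With 20000 bp or more to the next, 40.8% of 49 peaks closed in quintile 2 and 66.7% of 24 in quintile 3.

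Neighbouring peaks tended to change the same way, most often where they lay close together. Of 933 adjacent pairs less than 250 bp apart with both peaks called, 84.9% changed in the same direction, 212 pairs opening, 580 closing and 141 in opposite directions. The share was 75.2% at 250 to 499 bp, 71.1% at 1000 to 1999 bp and 62.3% at 10000 to 19999 bp, and it was slightly higher again beyond that, at 64.3%. Restricted to pairs that both changed at least 2-fold, it was 95.6% of 249 pairs under 250 bp and 69.5% of 197 pairs at 10000 to 19999 bp. Neighbours share a scaffold and its read coverage, and pairs close together can be parts of a single accessible region, so these shares are a description. Pairs also agree in part through the call shares alone, as 42.8% of changed peaks opened, and 36.6% at 2-fold. That part was not worked out.

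**Figure D4:**
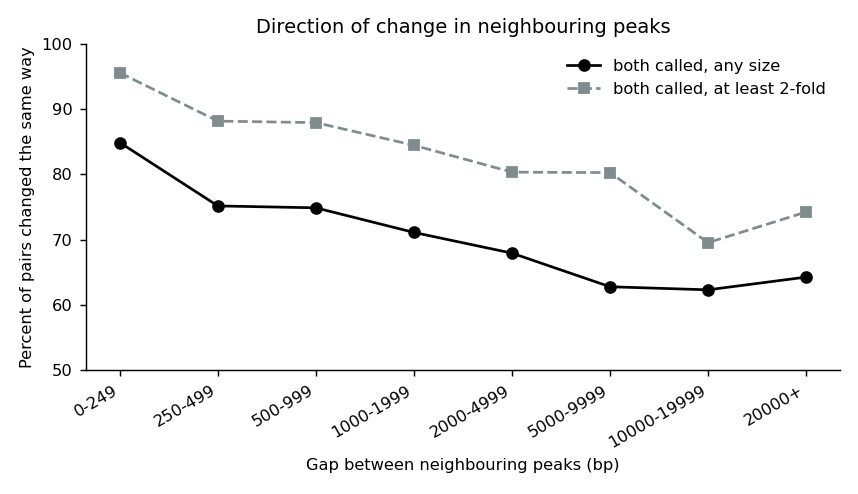
Percent of adjacent consensus peaks, with both called, that changed in the same direction from the 64-cell embryo to the gastrula, by the gap between them in bp. Black, any size of change; grey, both at least 2-fold. The share is 84.9% under 250 bp and 62.3% at 10000 to 19999 bp; the axis starts at 50%.

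Consecutive peaks formed runs of like direction. There were 621 runs of at least 5 consecutive closed peaks, holding 4032 peaks or 23.9% of all closed peaks, and 245 such runs of opened peaks, holding 1521 or 12.1% of all opened peaks. How many runs the shares of opened and closed peaks alone would give was not worked out. The longest closed runs had 17 peaks each. That on scaffold 30, from 391394 to 513646, spanned 122 kb and had a median log2 change of −1.15. Its median value was 278 and 291 in the 64-cell libraries and 133 and 96.9 in the gastrula libraries, and it was 386 and 420 at stage 8. That on scaffold 63, from 329056 to 412542, had a median log2 change of −1.20, with values of 215 and 260 falling to 109 and 125. Runs of 16 closed peaks lay on scaffold 55 (250604 to 297940, median −1.0) and scaffold 90 (292243 to 386956, median −1.11). The median peak of these 4 runs was in strength quintile 2 to 3.5.

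The longest opened run had 16 peaks on scaffold 208, from 144589 to 199218, with a median log2 change of 0.68 and median values of 1023 and 978 rising to 1732 and 1874. A run of 15 opened peaks lay on scaffold 23, from 104633 to 155791, with a median of 0.74. Its values, 1711 and 1830 at 64 cells and 2670 and 2673 in the gastrula, were higher still at stage 8, at 3501 and 3296. Runs of 13 opened peaks lay on scaffolds 167 (77694 to 110051, median 0.87), 449 (83141 to 124106, median 0.50) and 579 (43893 to 82665, median 1.57). The run on scaffold 579 rose most and came back. Its median value was 566 and 587 at 64 cells, 1492 and 1670 in the gastrula and 1818 and 1809 in stage 4tt larvae, and it came to 559 and 528 by stage 8. In it 8 of 13 peaks opened at least 2-fold. The median peak of these 5 runs was in strength quintile 4 or 5.

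Whole scaffolds differed as well. Over the 259 scaffolds with at least 50 consensus peaks, the share of opened among changed peaks had a median of 40.7% and ranged from 9.76% to 79.6%. It was highest on scaffold 208 (39 opened and 10 closed), scaffold 127 (22 and 8, 73.3%) and scaffold 247 (43 and 17, 71.7%). It was lowest on scaffold 124 (4 opened and 37 closed), scaffold 277 (5 and 33, 13.2%) and scaffold 234 (5 and 32, 13.5%). The median value on scaffold 208 was 471 and 574 at 64 cells and 672 and 617 in the gastrula, and on scaffold 124 it was 278 and 289 against 186 and 176. Strong peaks were unevenly spread, and 39.4% of the peaks on scaffold 208 but 6.78% of those on scaffold 124 were in the strongest quintile. Across the 259 scaffolds the opened share and the share of strongest-quintile peaks had a Pearson's r of 0.67, given as a description since both come from the same peaks and libraries.

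The largest rises started from few or no reads in the table. The rule that ranks peaks by their log2 change, among those past the test with no overlap between the libraries, gave 10 rises that all had 7 or fewer reads in total in the 64-cell libraries. CTEL_peak_20884 (scaffold 3031, 86 to 443) had 0 reads in both 64-cell libraries and 87 and 88 reads in the gastrula libraries, with values of 117 and 109. Against 3 reads over both 64-cell libraries, the most that counts of 0 allow, it was at least 34.9-fold higher (limma, adjusted p = 8.56e-07). It was nearly absent from all larval libraries, with a value of 1.15 in 1 of 6 and 0 in the others. CTEL_peak_28330 (scaffold 428, 185173 to 185805) was of the same kind, with 1 and 0 reads at 64 cells, 112 and 44 in the gastrula and values of at most 2.29 in the larvae, and its ratio was 93.2 with a counting interval of 16.5 to 3704. CTEL_peak_21003 (scaffold 30540) had 0 and 2 reads against 138 and 104, a ratio of 73.0 (interval 20.0 to 606), and CTEL_peak_38027 (scaffold 67) had 0 and 1 reads against 77 and 39, a ratio of 69.3 (interval 12.2 to 2759). These intervals are at 95% and cover counting error only.

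In a few of these peaks the libraries of a stage differed, or the lists differed from the table. CTEL_peak_7050 (scaffold 14673, 2051 to 2421) had 209 reads in gastrula replicate 1 and 4 in replicate 2, so that 1 library decided its value. Its log2 change was 5.38 with both, 2.59 without gastrula replicate 1 and 8.17 without replicate 2. Its call was lost in limma without 64-cell replicate 1 (adjusted p = 0.108) or 2 (0.104), in edgeR on recovered reads (0.195) and with a pseudocount of 10 (0.118). CTEL_peak_29002 (scaffold 4412, 6495 to 7617) had 0 and 7 reads at 64 cells and 205 and 120 in the gastrula, yet was called in both 64-cell lists with a fold enrichment of 13.8 and 10.5, against 14.7 and 15.2 in the gastrula. Its call was lost in limma without 64-cell replicate 1 (adjusted p = 0.0622) and without gastrula replicate 1 (0.0833) or 2 (0.0559). The other 4 of the rule, CTEL_peak_13882, CTEL_peak_16398, CTEL_peak_16132 and CTEL_peak_17968, had 0 reads at 64 cells and 20 to 46 per gastrula library, and were at least 11.6-fold to 13.2-fold higher. Of these, CTEL_peak_16398 was again in both 64-cell lists (fold enrichment 4.05 and 3.93, against 4.69 and 3.59 in the gastrula), and CTEL_peak_16132 and CTEL_peak_17968 were each in 1 of them (2.90 and 4.28).

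Such disagreement was general among peaks with few reads in the table. Of the 1390 peaks with 0 reads in both 64-cell libraries, 539 (38.8%) overlapped a called peak in both 64-cell lists, with a median fold enrichment of 3.75 and 3.68. That share was 42.8% over all 46409 peaks and 31.8% in the weakest quintile. In the weakest quintile, 1998 of 9282 peaks were called in all 4 lists. In those the table rose by a median of 0.67 on the log2 scale and the fold enrichment by 0.09, with fold enrichment higher in both gastrula lists at 42.3% and lower in both at 32.8%. Among the 1367 peaks opened at least 2-fold that were in all 4 lists, by contrast, fold enrichment was higher in both gastrula lists at 75.3%.

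Ranked among the peaks with at least 20 reads in each of the 4 libraries, a second rule added after the values had been seen, the largest rises were of moderate size and fell into separate courses. CTEL_peak_11985 (scaffold 196, 89796 to 90098, 303 bp) rose from 142 and 120 to 1289 and 1430, a log2 change of 3.37 ± 0.14 (SE, limma, adjusted p = 5.14e-10). It stayed at 1357 and 1142 at stage 4tt and was back at 113 and 118 at stage 8. CTEL_peak_9903 (scaffold 173, 211123 to 211741) rose from 259 and 206 to 1584 and 1580, stood at 1151 and 981 at stage 4tt and ended at 127 and 179 at stage 8. CTEL_peak_10880 (scaffold 183) and CTEL_peak_20034 (scaffold 294) had the same course at lower levels, with 81.0 and 110 rising to 692 and 717 in the first and 104 and 98.9 rising to 663 and 718 in the second. These 4 were 198 to 619 bp wide, were called in both gastrula lists and in neither 64-cell list, and were highest in the gastrula and at stage 4tt. CTEL_peak_14706, CTEL_peak_27781, CTEL_peak_30578 and CTEL_peak_30214 kept at least 205 at stage 8, and all 4 were already in both 64-cell lists. In CTEL_peak_14706 fold enrichment barely differed, at 15.8 and 16.6 at 64 cells against 16.9 and 16.8 in the gastrula. The remaining CTEL_peak_46024 and CTEL_peak_40551 were each in 1 of the 64-cell lists and were lower at each successive larval stage, down to 212 and 236 and to 101 and 93.2 at stage 8.

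The largest falls were of a different make. Of the 10 under the rule, 6 had at most 109 in any 64-cell library, and 4 had at least 586 in both and at most 262 in either gastrula library. CTEL_peak_19779 (scaffold 29, 727450 to 729781) fell from 4161 and 5735 to 262 and 248, a log2 change of −4.25 ± 0.14 (SE, limma, adjusted p = 1.27e-10), and remained between 248 and 550 in every larval library. CTEL_peak_34654 (scaffold 577, 9029 to 10028) fell from 1402 and 2171 to 101 and 97.8, CTEL_peak_25955 (scaffold 387, 90713 to 91087) from 998 and 1463 to 53.4 and 76.0, and CTEL_peak_10314 (scaffold 178, 252638 to 253161) from 586 and 847 to 49.4 and 32.5. All 4 were called in both 64-cell lists and in neither gastrula list. Under the rule with at least 20 reads per library, further large falls were CTEL_peak_8869 (3749 and 4442 to 291 and 264), CTEL_peak_15379 (3410 and 3999 to 265 and 242), CTEL_peak_15354 (2951 and 3733 to 226 and 196) and CTEL_peak_43595 (2696 and 2938 to 206 and 156). CTEL_peak_15379 and CTEL_peak_15354 lie on the same scaffold, 232. CTEL_peak_8869 and CTEL_peak_15354 were still in 1 gastrula list each. In all 10 falls of this rule the larval libraries stayed under the 64-cell ones, and the nearest approach was in CTEL_peak_12659, at 350.2 against 1160.4.

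Falls from low levels differed in their later course. CTEL_peak_44189 (scaffold 8954, 1234 to 1691) had 14 and 23 reads at 64 cells and 0 in both gastrula libraries, at least 20.7-fold lower, and 33.6 to 55.0 units again at stage 4tt. It was nevertheless called in both gastrula lists, with a fold enrichment of 2.38 and 3.28 against 2.41 and 2.69 at 64 cells. CTEL_peak_17168 (scaffold 2539) had 15 and 32 reads against 0 and 1, and CTEL_peak_11478 (scaffold 19) 15 and 47 against 0 and 3. The latter had a value of 125 or more in every larval library. Neither of those 2 was in any of the 4 lists. CTEL_peak_18171, CTEL_peak_36927 and CTEL_peak_33849 had 12 to 55 reads per 64-cell library and 0 to 2 per gastrula library, and at most 11.4 in any larval library. Of these 3, all in both 64-cell lists, CTEL_peak_33849 was also in both gastrula lists (2.11 and 3.22 against 5.41 and 3.68).

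The strongest peaks of the table closed in step with each other. CTEL_peak_13150 (scaffold 2067, 10269 to 12505) had 2110040 and 1651850 units at 64 cells, 914956 and 989548 in the gastrula, and 148253 to 633302 in the larvae. It alone was 6.46% and 5.13% of the total of the 64-cell libraries and 2.95% and 3.21% of that of the gastrula libraries. CTEL_peak_15319, CTEL_peak_16955, CTEL_peak_6522 and CTEL_peak_16954 followed, and the log2 changes of the 5 lay between −1.01 and −0.94, with a limma adjusted p from 0.000842 to 0.00192. The ratio of the strongest to the next was 1.79 to 1.9 in every library of the series, so these peaks differ between libraries nearly by a common factor. Their fold enrichment was lower in both gastrula lists too, at 4.79 and 5.08 against 6.88 and 6.25 in CTEL_peak_13150. Together they made up 18.1% and 14.6% of the 64-cell totals and 8.39% and 9.05% of the gastrula totals. Quantile normalization sets peaks of fixed rank equal and gave them a change of 0.

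What the changed peaks did later was followed over the larval stages, first as levels. The levels at 64 cells and in the gastrula are those that defined the groups. The opened peaks had a median value of 491 and 505 at 64 cells that became 837 and 823 in the gastrula. They then stood at 797 and 786 in stage 4tt larvae, at 639 and 660 in stage 5 larvae and at 553 and 577 in stage 8 larvae. The closed peaks went from 350.0 and 349 to 178 and 166, and then stood at 214 and 217, at 337 and 330, and at 365 and 382 in the same order of larval stages. Peaks with neither call had medians between 209 and 256 in all 10 libraries. At stage 8 the median value of the closed peaks was slightly above that at 64 cells, and so was that of the opened peaks. The same was so over all peaks, at 351 and 367 against 333 and 335. In peaks with neither call it was 243 and 256 against 218 and 223. Stages 5 and 8 were sequenced at another centre than the earlier stages, so stage and centre cannot be told apart in these comparisons of levels. Closed peaks of at least 2-fold were at 289 and 300.4 at stage 8, from 123 and 115 in the gastrula and 312 and 310 at 64 cells. The 668 that closed at least 4-fold stayed lower, at 152 and 157 at stage 8, from 87.8 and 81.2 in the gastrula and 435 and 517 at 64 cells. Opened peaks of at least 2-fold fell to 129 and 135, from 301 and 279 in the gastrula and 102 and 103 at 64 cells.

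**Figure D5:**
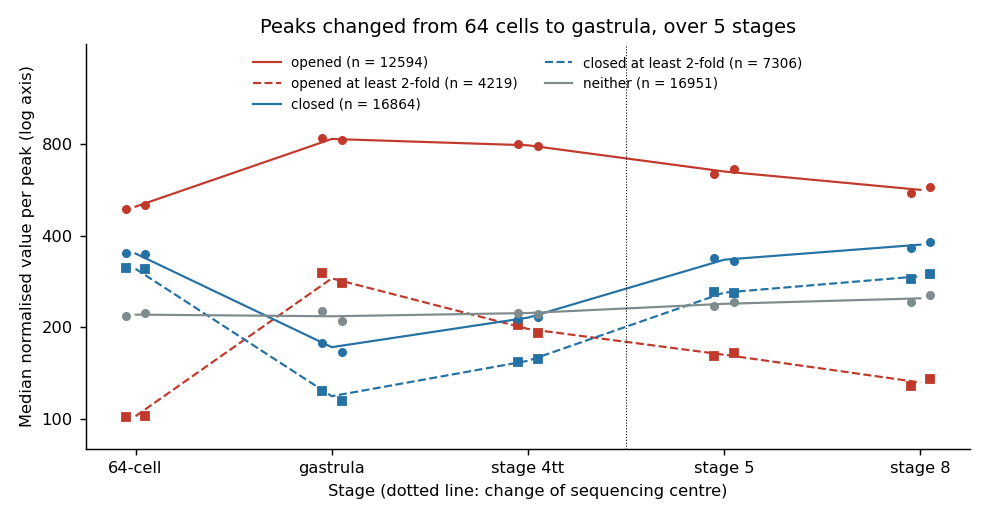
Median normalised value per peak (log axis) over the 5 stages for peaks that opened (red) or closed (blue) from the 64-cell embryo to the gastrula, for those changed at least 2-fold (dashed) and for peaks with neither call (grey). Points are the 2 libraries of a stage and lines join their geometric means; the median closed peak drops from 350.0 and 349 to 178 and 166 and is at 365 and 382 at stage 8.

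The comparison from stage 5 to stage 8 shares no library with that from the 64-cell embryo to the gastrula and lies within a single sequencing centre. Over all peaks 15.3% opened and 17.4% closed in it. Among the peaks that had closed by the gastrula, 22.2% opened and 8.95% closed, and among those that had opened by the gastrula, 10.3% opened and 32.6% closed. Peaks with neither call by the gastrula had 12.2% and 14.5%. The later changes were small, with a median log2 change of 0.15 for the earlier closed and −0.17 for the earlier opened peaks. The order held in each strength quintile. Earlier closed peaks opened at 12.8% against 5.65% of all peaks in the weakest quintile and at 30.5% against 16.6% in the strongest, and earlier opened peaks closed at 13.5% against 6.72% and at 42.2% against 36.3%. In quintile 2, which held 5161 of the closed peaks, the closed ones were near all peaks, with 17.2% against 15.8% opening. The earlier opened peaks of that quintile closed at 21.4% against 7.64%.

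From stage 4tt to stage 5, also without shared libraries, 39.8% of all peaks opened and 20.0% closed. Among earlier closed peaks 67.3% opened and 5.69% closed, and among earlier opened peaks 16.4% opened and 41.3% closed. Stage 4tt and stage 5 were sequenced at different centres, so stage and centre cannot be told apart in this step. In every strength quintile the earlier closed peaks opened more often than all peaks, from 60.6% against 42.7% in the weakest to 59.7% against 24.2% in the strongest. In the weakest quintile, though, the median log2 change of this step was 0.86 for earlier opened, earlier closed and all peaks alike. Earlier opened peaks opened there at 40.7% and closed at 10.9%, against 42.7% and 6.35% of all peaks. Opened peaks of at least 4-fold, which start from medians of 4.73 and 3.95 at 64 cells, were an exception to the reversal, since 38.6% opened again, close to the share over all peaks, and 16.1% closed. Closed peaks of at least 4-fold were another, as 43.9% opened in this step, near the share over all peaks, and from stage 5 to stage 8 11.1% opened, below the 15.3% of all peaks. Among the 3 larval stages, which span both centres, 62.2% of the peaks closed by the gastrula had their highest stage mean at stage 8, against 40.4% of all peaks, and 57.9% of the opened peaks had it at stage 4tt, against 31.8%.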

How the data were processed

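ATAC-seq reads were trimmed, mapped in pairs with NextGenMap, cleared of duplicates and shifted for the transposase by the authors, who called peaks in each library with MACS2 2.2.7.1. The genome build used for mapping these libraries is not given in the sources used here, and the growth protocol in the labels describes another annelid. The deposited peak lists give a fold enrichment over local background (a ratio) and a −log10 q-value, both made by the peak caller of the authors. The deposited table holds signal values, which are reads per consensus peak that the authors divided by normalization factors of DESeq2 after removing irreproducible peaks and peaks in repeats.

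Reads were recovered as multiples of a step that varies smoothly with abundance (running median over 41 peaks, 14 rounds). Within 0.1 reads, 99.99% of 56159 values of 1 to 50 reads were whole. For each peak log2(value + 1) of all 10 libraries was fitted in limma 3.58.1 with trend and robust moderation, without a filter or covariate. Fold changes are on that scale and come out too small where values are near 1. The p-values are two-sided and measure the spread between 2 libraries per stage, which the study describes as biological replicates. DESeq2 1.42.0 and edgeR 4.0.16 were run on recovered reads as alternatives, and lists were intersected with bedtools 2.31.1. The test was also run on simulated counts in which few peaks changed, all with a mean value at or above the median. That simulation does not cover changes at weak peaks or changes as widespread as those described here. Classes of strength, width and spacing, runs, scaffolds and lists are described without tests. Peaks named in the text are the 10 largest rises and falls past the test without overlap between libraries, the 5 with the highest mean value, the 3 longest runs in each direction with ties, and the scaffolds of at least 50 peaks with the 3 highest and 3 lowest opened shares. The comparison, the classes and the rules were chosen with earlier results of these data known. Starts are counted from 1.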

Additional observations from a re-analysis of the deposited data

Results flagged for a closer look

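Merging the 4 called peak lists gave 64304 regions, of which 24077 (37.4%) were called in all 4 libraries. Of these, 7134 (29.6%) overlapped no consensus peak and enter none of the comparisons above, although both stages called them. Why they are outside the table was not tested. No other result met the criteria, since 2 libraries per stage are too few to call a library an outlier.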

How the results depend on the processing

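The counts of opened and closed peaks were within 1.5 times of 12594 and 16864 under most settings. Requiring a 2-fold change left 4219 opened and 7306 closed peaks, 11525 in all. Setting library medians equal gave 18964 opened and 11341 closed peaks, TMM scaling 15115 and 14894, and quantile normalization 12786 and 13302. Only peaks in at least 1 of the 4 lists, a restriction chosen after seeing the data, gave 11798 and 8617. Leaving out 1 library gave 10754 to 12732 opened and 14894 to 16361 closed peaks. The remaining sample of a stage is then assumed to vary like the other stages. With a replicate block the counts were 12633 and 16821. The replicate numbers do not pair the samples (r of −0.01 between the 64-cell and gastrula deviations), and the block changed no direction. DESeq2 called 11509 and 15856, edgeR 12052 and 16565. No peak opened in limma closed in either, or the reverse.

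Under each of 17 settings for the whole table, the strongest quintile had more opened than closed peaks, quintiles 2 and 3 more closed than opened, and the widest peaks of strength quintiles 3 to 5 closed more often than the narrowest. Peaks that closed by the gastrula opened from stage 5 to stage 8 at 18.96% to 22.9%, against 15.3% of all peaks. For this range only the calls by the gastrula were redone. The calls from stage 5 to stage 8 were kept, so their own dependence on the processing was not tested. Of 41 named peaks 34 kept their call throughout. The exceptions are CTEL_peak_7050 and CTEL_peak_29002, which were also not called at an adjusted p under 0.01, and the 5 strongest peaks, of which 4 changed less than 2-fold and all are set to 0 by quantile normalization. Weak peaks limit the precision, as the median peak of the weakest quintile held 10 reads in the 64-cell replicate 1.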
